A study of Mus musculus with 12 samples.

Results

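A set of 10 genes of the cell division cycle, Mki67, Bub1b, Ccna2, Ccnb1, Ccnd1, Cdc20, Mcm2, Mcm5, Pcna and Rrm2, was followed in mouse retina after an injection of gold or silicate nanoparticles into the eye. They were taken as a named list, and every array probe whose accession maps to one of these symbols was used, which gave 13 probes for the 10 genes among 39429 probes for 32496 genes. All 10 genes and 11 of their probes passed the filter on dim probes, which 23237 genes passed in all. Bub1b was lower with silicate particles of 20 nm than with saline, by 1.06 ± 0.27 on the log2 scale (SD, n = 3 pools), and no other member passed the test in any group. Mki67, Rrm2, Cdc20 and Ccnb1 moved together over a wide range: they were high in both silicate tubes of slide 3, in the silicate 20 nm tube of slide 1 and in the PBS channel of slide 1, and low elsewhere.

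The vitreous of the right eye of C57BL/6 mice, male and 5 weeks old, was injected with phosphate-buffered saline (PBS), with gold particles 20 or 100 nm in diameter, or with silicate particles 20 or 100 nm in diameter, and the retinas were taken 7 days later. With 12 mice per group and 4 retinas pooled per tube, each particle group had 3 tubes, and each of the 12 2-colour arrays set a particle tube in the dye Cy5 against PBS retina in Cy3. The arrays lay on 3 slides, each with 1 array of every group, and the dyes were never exchanged, so a dye effect of a probe is part of each ratio against PBS. All the groups, PBS included, had an injected eye, and no uninjected retina is among these samples. The sample annotation writes the sizes in nM where the growth protocol gives nm, and the strain label of the PBS channel reads C57BL/6 on the gold arrays but runs from C57BL/7 to C57BL/12 on the silicate arrays. Every particle channel is labelled C57BL/6.

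Cells that divide copy their DNA in S phase and separate it in mitosis. D-type cyclins such as Ccnd1 lead a cell out of rest, the Mcm helicase, the sliding clamp Pcna and the ribonucleotide reductase subunit Rrm2 serve DNA synthesis, and cyclin A2 (Ccna2) and cyclin B1 (Ccnb1) carry the cell through S phase and into mitosis. Bub1b encodes BubR1, a component of the spindle checkpoint, and Cdc20 activates the ligase that this checkpoint holds back. Mki67 encodes Ki-67, the common stain for cycling cells. Neurons of the mature retina do not divide, whereas glia, vessel cells and immune cells can. Pcna also serves DNA repair, and Ccnd1 is expressed in Müller glia, so neither is a mark of division alone.

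Promoters of 8 of the 10 genes were found in the RefSeq table (build GRCm38.p6), and those of Ccna2 and Ccnd1 were not matched. Shown here are 5, those of the 4 genes whose ratios ranged together and that of Bub1b, the member that passed the test. Each line gives the 250 bases before the annotated start of the gene, on the strand of the gene, at chr7:135716380-135716629 (minus strand) for Mki67, chr12:24708004-24708253 (plus) for Rrm2, chr4:118437344-118437593 (minus) for Cdc20, chr13:100786487-100786736 (minus) for Ccnb1 and chr2:118597961-118598210 (plus) for Bub1b. Capitals mark matches, on either strand, to the box CCAAT, to the cell cycle homology region (CHR, as TTTGAA or TTCGAA) and to an E2F-type site (TTCCCGC and its forms TTCGCGC and TTGCCGC and also TTGGCGC).
Mki67: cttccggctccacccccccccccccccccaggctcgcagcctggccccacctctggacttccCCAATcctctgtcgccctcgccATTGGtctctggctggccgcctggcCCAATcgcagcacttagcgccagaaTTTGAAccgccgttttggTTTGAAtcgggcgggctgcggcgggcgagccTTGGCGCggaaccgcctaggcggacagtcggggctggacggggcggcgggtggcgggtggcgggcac
Rrm2: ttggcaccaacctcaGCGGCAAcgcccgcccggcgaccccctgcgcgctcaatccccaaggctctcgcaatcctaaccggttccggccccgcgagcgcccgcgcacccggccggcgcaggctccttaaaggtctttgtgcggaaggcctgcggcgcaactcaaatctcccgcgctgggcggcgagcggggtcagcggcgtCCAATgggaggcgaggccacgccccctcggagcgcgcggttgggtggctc
Cdc20: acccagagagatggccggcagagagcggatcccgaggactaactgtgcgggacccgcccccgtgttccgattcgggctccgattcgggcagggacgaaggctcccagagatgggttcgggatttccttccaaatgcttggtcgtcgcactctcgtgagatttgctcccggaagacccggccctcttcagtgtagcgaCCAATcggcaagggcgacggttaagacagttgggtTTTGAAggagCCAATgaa
Ccnb1: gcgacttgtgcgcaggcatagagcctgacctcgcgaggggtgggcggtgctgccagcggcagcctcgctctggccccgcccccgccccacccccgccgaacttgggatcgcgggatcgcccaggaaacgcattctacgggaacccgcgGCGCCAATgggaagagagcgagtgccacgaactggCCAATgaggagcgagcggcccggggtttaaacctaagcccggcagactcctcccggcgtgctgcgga
Bub1b: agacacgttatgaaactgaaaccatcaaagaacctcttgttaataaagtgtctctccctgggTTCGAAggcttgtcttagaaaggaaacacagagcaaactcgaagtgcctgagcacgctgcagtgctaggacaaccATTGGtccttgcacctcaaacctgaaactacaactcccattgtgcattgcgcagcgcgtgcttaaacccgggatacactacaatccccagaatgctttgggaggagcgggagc
CCAAT stood in all 8 promoters, and in 33.8% of the 32817 mouse promoters in the table over the same 250 bases. A CHR stood in 4 of the 8, in Mki67, Bub1b, Cdc20 and Mcm2, against 17.1% of all. An E2F-type site stood in 4, in Mki67, Ccnb1, Mcm5 and Rrm2, against 7.89% of all, and in Ccnb1 it overlaps a CCAAT box on the other strand. The motifs did not sort the 5 promoters by the behaviour of their genes: Rrm2 and Ccnb1 have no CHR in this window and Bub1b has one. A match of letters is no measure of binding, which was not assayed here.

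Of the 10 members, the probe that stands for the gene was well above background in both channels on all 12 arrays for 9. Ccnb1 was dim: its brightest probe was well above background on 6 arrays in Cy5 and on 8 in Cy3, and its 2 other probes did not pass the filter, with 3 arrays in each channel for one and 0 for the other. Mki67 had another probe that passed, and it followed the first on all arrays, from -2.40 to 3.56 in log2 ratio against -1.93 to 2.90 for the first. No member's spot was marked as an outlier. Levels below are log2 intensities, which compare tubes for 1 probe and not genes with each other, and ratios are log2 of particle over PBS.

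**Figure D1:**
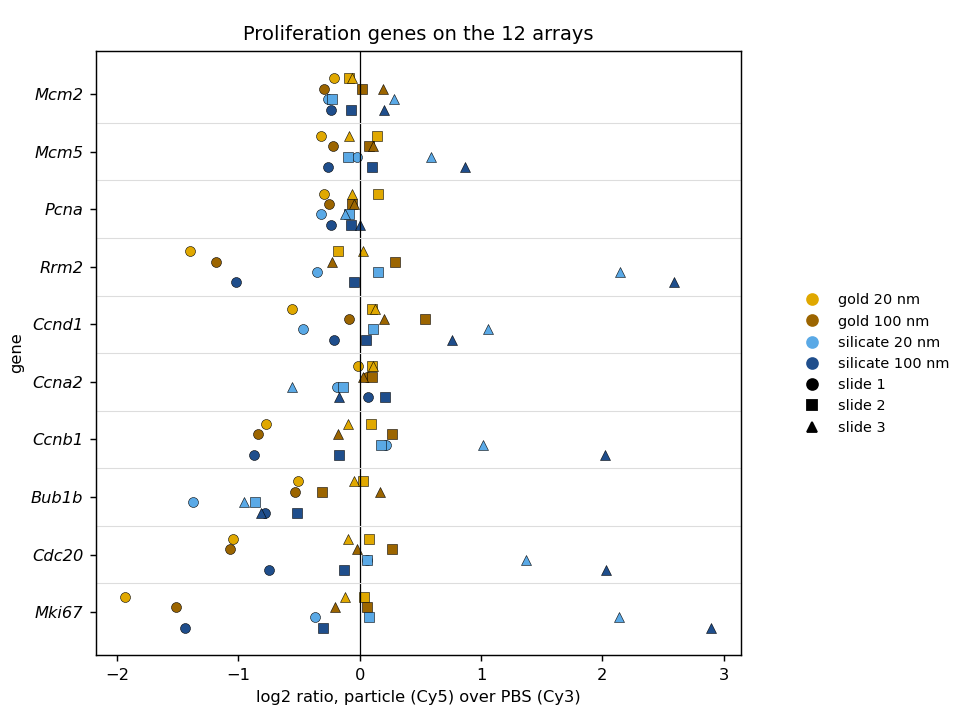
Log2 ratio of particle (Cy5) over PBS (Cy3) for the 10 proliferation genes on the 12 arrays, with colour for the particle group and marker shape for the slide. Mki67 spans -1.93 to 2.90 and Rrm2 -1.40 to 2.59, low on slide 1 and high on the silicate arrays of slide 3, while Bub1b is at or below -0.52 on all 6 silicate arrays.

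Among the genes of DNA synthesis, Rrm2 ranged widest. In the gold 20 nm group its ratios were -1.40, -0.18 and 0.03 on slides 1, 2 and 3, and in the gold 100 nm group -1.18, 0.29 and -0.23. They were -0.35, 0.15 and 2.15 with silicate 20 nm and -1.02, -0.05 and 2.59 with silicate 100 nm. Every array of slide 1 was below 0, both silicate arrays of slide 3 were above 2, and all the other ratios lay within 0.3 of 0, so the 4 groups overlapped. Group means against PBS ran from -0.52 ± 0.77 with gold 20 nm to 0.65 ± 1.32 with silicate 20 nm (SD, n = 3), and none passed limma's test (adjusted p from 0.737 to 0.893).

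Mcm5, a subunit of the replicative helicase, followed Rrm2 at a smaller scale. Its ratios ran from -0.32 to 0.14 on 10 arrays, and were 0.59 and 0.87 on the silicate 20 and 100 nm arrays of slide 3. Mcm2, another subunit, stayed between -0.29 and 0.28 on all 12 arrays, below 0 on all 4 arrays of slide 1. Pcna ranged from -0.32 to 0.15 and was below 0 on 10 of 12 arrays. Its mean over the 4 particle groups was -0.12 (95% confidence interval -0.22 to -0.02), which did not pass limma's test (adjusted p = 0.11). With slide as a fixed replicate block the adjusted p was 0.0102, and with slide as a random block 0.479.

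Of the cyclins, Ccnb1 moved with Rrm2. Its ratios on slides 1, 2 and 3 were -0.77, 0.09 and -0.10 with gold 20 nm, and -0.84, 0.27 and -0.18 with gold 100 nm. With silicate 20 nm they were 0.22, 0.18 and 1.02, and with silicate 100 nm -0.87, -0.17 and 2.02. The high arrays were again the silicate arrays of slide 3, and the low ones were those of slide 1 apart from silicate 20 nm. The dimness of the probe bounds what these ratios can show, since 6 of the 12 Cy5 readings were not well above background.

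Ccnd1 was between -0.56 and 0.54 on 10 arrays and at 1.06 and 0.76 on the silicate 20 and 100 nm arrays of slide 3. Its group means lay between -0.11 ± 0.39 with gold 20 nm and 0.23 ± 0.77 with silicate 20 nm (SD, n = 3), with adjusted p from 0.794 to 0.907 in limma.

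Ccna2 took another course than Ccnb1. Its ratios were -0.01, 0.10 and 0.11 with gold 20 nm and 0.06, 0.10 and 0.03 with gold 100 nm on slides 1, 2 and 3. With silicate 20 nm they were -0.19, -0.14 and -0.56, and with silicate 100 nm 0.07, 0.21 and -0.17. The 3 silicate 20 nm arrays were below all arrays of both gold groups, and on slide 3 both silicate arrays were low, where Ccnb1 was high. The silicate 20 nm mean was -0.30 ± 0.23 (SD, n = 3; 95% confidence interval -0.50 to -0.09), which limma did not call (adjusted p = 0.148, and 0.222 with slide as a random block). With slide as a fixed replicate block the adjusted p was 0.0456.

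Among the genes of mitosis, Bub1b was the member with a called difference. Its ratios on slides 1, 2 and 3 were -1.37, -0.86 and -0.95 with silicate 20 nm and -0.78, -0.52 and -0.81 with silicate 100 nm. They were -0.51, 0.03 and -0.05 with gold 20 nm and -0.53, -0.31 and 0.17 with gold 100 nm. On each of the 3 slides both silicate arrays were below both gold arrays, a pattern that 2.25% of 23199 genes with all values showed in this direction and 2.7% in the other. Across slides silicate 100 nm overlapped with gold 100 nm, with -0.52 on slide 2 against -0.53 on slide 1, and silicate 20 nm did not overlap with either gold group.

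The levels of Bub1b in the particle channel gave the same order. These levels are scaled together with the PBS channel of the array. In the unscaled Cy5 signal the silicate 20 nm tubes read 9.77, 9.75 and 9.67, below the other 9 particle tubes at 9.88 to 11.22. As scaled levels, the silicate 20 nm tubes stood at 9.63, 9.80 and 9.72 in log2 intensity, below each of the other 9 particle tubes. The silicate 100 nm tubes were at 10.31, 10.12 and 9.84, the gold 100 nm tubes at 10.48, 10.28 and 10.91, and the gold 20 nm tubes at 10.67, 10.66 and 10.75. The means ± SD (n = 3) were 9.72 ± 0.08 for silicate 20 nm, 10.09 ± 0.24 for silicate 100 nm, 10.56 ± 0.32 for gold 100 nm and 10.69 ± 0.05 for gold 20 nm. Of neighbours in this order, silicate 20 and 100 nm did not overlap, silicate 100 nm overlapped with gold 100 nm, and gold 100 nm enclosed gold 20 nm. In the PBS channel, which carries the other dye, the gene read 11.00 to 11.17 on slide 1 and 10.59 to 10.80 on slides 2 and 3, which covers the gold 20 nm tubes and lies above all 6 silicate tubes.

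**Figure D2:**
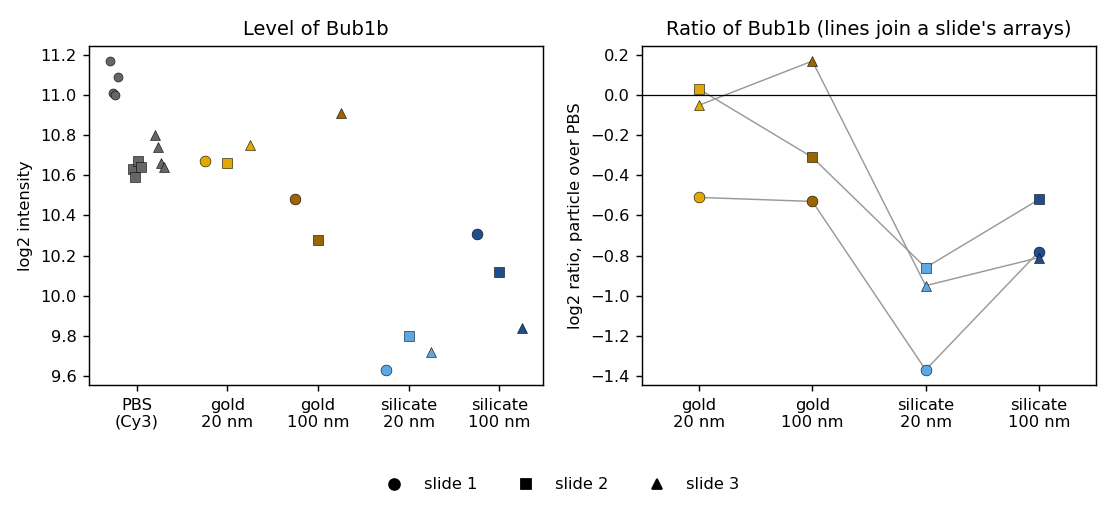
Bub1b in log2 intensity in the PBS channel and in each particle tube (left), and as log2 ratio of particle over PBS with lines joining the 4 arrays of a slide (right). The 3 silicate 20 nm tubes lie at 9.63 to 9.80, under all other tubes, and on every slide the line falls from gold to silicate.

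With silicate 20 nm the mean of -1.06 (95% confidence interval -1.40 to -0.72) is a level 2.08-fold lower than in PBS, and limma called it (adjusted p = 0.0103, and 0.0132 with slide as a random block). This was 1 of 10 members called, lower, where 2.08% of all genes were called in this group and 0.495% were called lower. The call rests on all 3 slides: without slide 1, 2 or 3 the adjusted p was 0.101, 0.374 or 0.0844, with estimates of -0.90, -1.16 and -1.12. Leaving out the single silicate 20 nm array of slide 1 or of slide 2 gave 0.0822 or 0.053, and leaving out both silicate arrays of slide 3 gave 0.055. With silicate 100 nm the mean was -0.70 ± 0.16 (SD, n = 3; 95% confidence interval -1.04 to -0.36), 1.63-fold lower, with an adjusted p of 0.0726 in limma that fell to 0.0111 with slide as a fixed replicate block.

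With gold the means of Bub1b were -0.17 ± 0.29 at 20 nm and -0.22 ± 0.36 at 100 nm (SD, n = 3), with adjusted p of 0.811 and 0.643 in limma. Gold minus silicate was 0.68 (95% confidence interval 0.34 to 1.02) over the 12 arrays, and by slide silicate minus gold was -0.56, -0.55 and -0.94. The adjusted p of Bub1b in limma was 0.61, from an unadjusted p of 0.00126. This comparison called 0 of 23235 genes, with 1206 at an unadjusted p under 0.05. With slide as a random block 15 genes were called and Bub1b had an adjusted p of 0.0727. The difference between silicate and gold was thus not called for Bub1b. Over all 4 groups together Bub1b was lower than PBS by -0.54 (95% confidence interval -0.71 to -0.37) and below 0 on 10 of 12 arrays. Limma called this (adjusted p = 0.00165), 1 of 10 members where 14.8% of all genes were called and 6.34% were called lower, and without slide 2 (0.0724) or with slide as a random block (0.0565) it was not called.

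Cdc20, the target of the checkpoint in which Bub1b acts, went another way than Bub1b. Its ratios on slides 1, 2 and 3 were -1.04, 0.08 and -0.10 with gold 20 nm and -1.07, 0.27 and -0.02 with gold 100 nm. With silicate 20 nm they were 0.06, 0.06 and 1.37, and with silicate 100 nm -0.75, -0.13 and 2.03. Mki67 had the widest range. Its ratios were -1.93, 0.04 and -0.12 with gold 20 nm and -1.51, 0.06 and -0.20 with gold 100 nm. They were -0.37, 0.08 and 2.14 with silicate 20 nm and -1.44, -0.30 and 2.90 with silicate 100 nm. For both genes slide 2 lay near 0 and the silicate arrays of slide 3 were highest. Slide 1 was lowest, apart from its silicate 20 nm array for Cdc20. The 4 groups thus overlapped.

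The group means of Mki67 were therefore small beside their spread: -0.67 ± 1.10 with gold 20 nm, -0.55 ± 0.84 with gold 100 nm, 0.61 ± 1.34 with silicate 20 nm and 0.39 ± 2.25 with silicate 100 nm (SD, n = 3). Their 95% confidence intervals all include 0, from -2.41 to 1.07 with gold 20 nm, -2.29 to 1.18 with gold 100 nm, -1.12 to 2.35 with silicate 20 nm and -1.35 to 2.12 with silicate 100 nm. No adjusted p of Mki67 against PBS in limma was under 0.808. Gold minus silicate was -1.11 for Mki67 (95% confidence interval -2.85 to 0.63; adjusted p = 0.881), and by slide silicate minus gold was 0.81, -0.16 and 2.68.

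**Figure D3:**
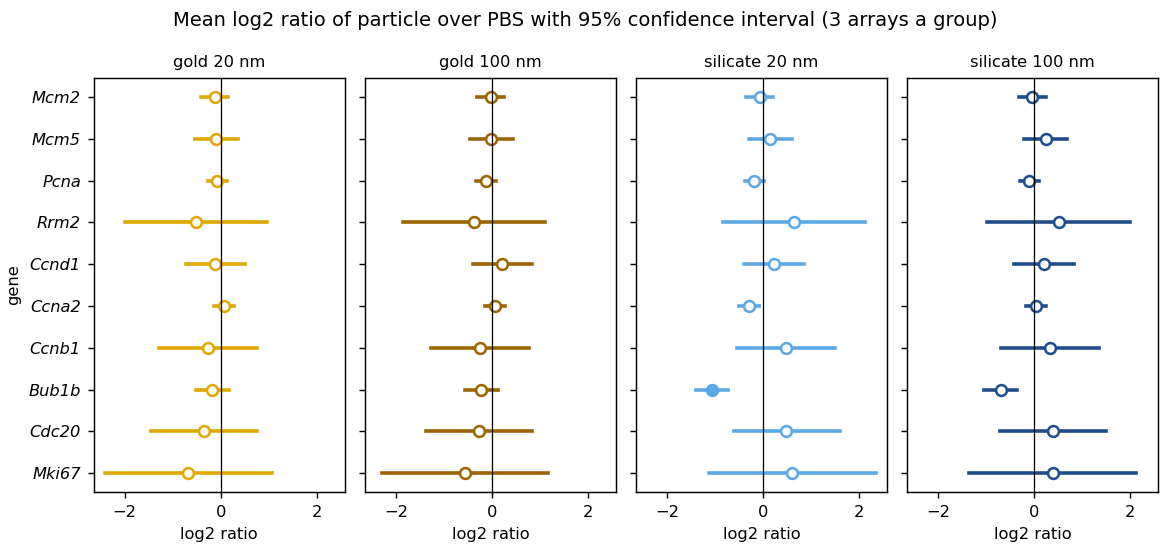
Mean log2 ratio of particle over PBS for each gene and group, as points with 95% confidence intervals from limma (3 arrays per group); a filled point passed the adjusted threshold of 0.05. Bub1b with silicate 20 nm, at -1.06, is the filled point, and the intervals of Mki67, Rrm2, Cdc20 and Ccnb1 are the widest.

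Counted over the members, 0 of 10 were called with gold 20 nm, where 0.706% of all genes were, and 0 of 10 with gold 100 nm, where 0.977% were. With silicate 100 nm 0 of 10 were called against 0.99% of all genes. At an unadjusted p under 0.05 limma gave 0 members with gold 20 nm, 0 with gold 100 nm, 2 with silicate 20 nm and 1 with silicate 100 nm, beside 8.79%, 12.1%, 15.5% and 10.8% of all genes. Means lay below 0 for 9 of 10 members with gold 20 nm and 8 with gold 100 nm, and above 0 for 6 with silicate 20 nm and 7 with silicate 100 nm. The median member stood at -0.15, -0.17, 0.19 and 0.22 in that order, beside medians over all genes of -0.01, -0.02, 0.01 and 0.01. Since the groups were set against the same PBS tubes on each slide, these directions are not independent of one another.

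Size gave 0 calls too: 100 nm minus 20 nm was between -0.07 and 0.16 for all 10 members, with 0 of 23235 genes called by limma and 230 at an unadjusted p under 0.05, 0 of them members. The difference was 0.16 for Ccna2 (95% confidence interval -0.04 to 0.37), and by slide it was 0.16, 0.18 and 0.15. For Bub1b it was 0.15 (95% confidence interval -0.18 to 0.49).

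The levels in the 2 channels show which tubes lie behind the wide ratios. Mki67 in PBS read 9.57 to 9.77 on the 4 arrays of slide 1, and 7.77 to 8.12 on the 8 arrays of slides 2 and 3. Rrm2 in PBS read 8.08 to 8.13 on slide 1 and 6.73 to 7.13 on the other slides, Cdc20 8.64 to 8.74 and 7.58 to 7.84, and Ccnb1 7.21 to 7.44 and 6.38 to 6.63. The PBS readings of slide 1 thus stood apart from the rest for all 4 genes. Over the members, 9 of 10 read higher in PBS on slide 1 than on slides 2 and 3 without overlap, as 21.3% of all genes did, and Ccna2 read lower without overlap, as 27.9% did. The labels do not say which PBS tube went on which array; the readings of a member within a slide had an SD of 0.02 to 0.22, and the reading used here is 1 PBS pool per slide.

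In the particle channel, Mki67 was at 7.72 to 8.21 in 9 of the 12 tubes. The other 3 were silicate tubes: 9.20 for silicate 20 nm on slide 1, 10.00 for silicate 20 nm on slide 3 and 10.66 for silicate 100 nm on slide 3. The same 3 tubes were the highest for Rrm2, at 7.74, 9.03 and 9.46 against 6.70 to 7.30, for Cdc20, at 8.71, 8.95 and 9.69 against 7.62 to 7.92, and for Ccnb1, at 7.42, 7.54 and 8.41 against 6.33 to 6.80. Both silicate tubes of slide 2 were among the low 9. Over the members, 6 of 10 read higher in both silicate tubes of slide 3 than in the other 10 particle tubes, as 17.2% of all genes did, and Pcna read lower, as 19.2% did.

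**Figure D4:**
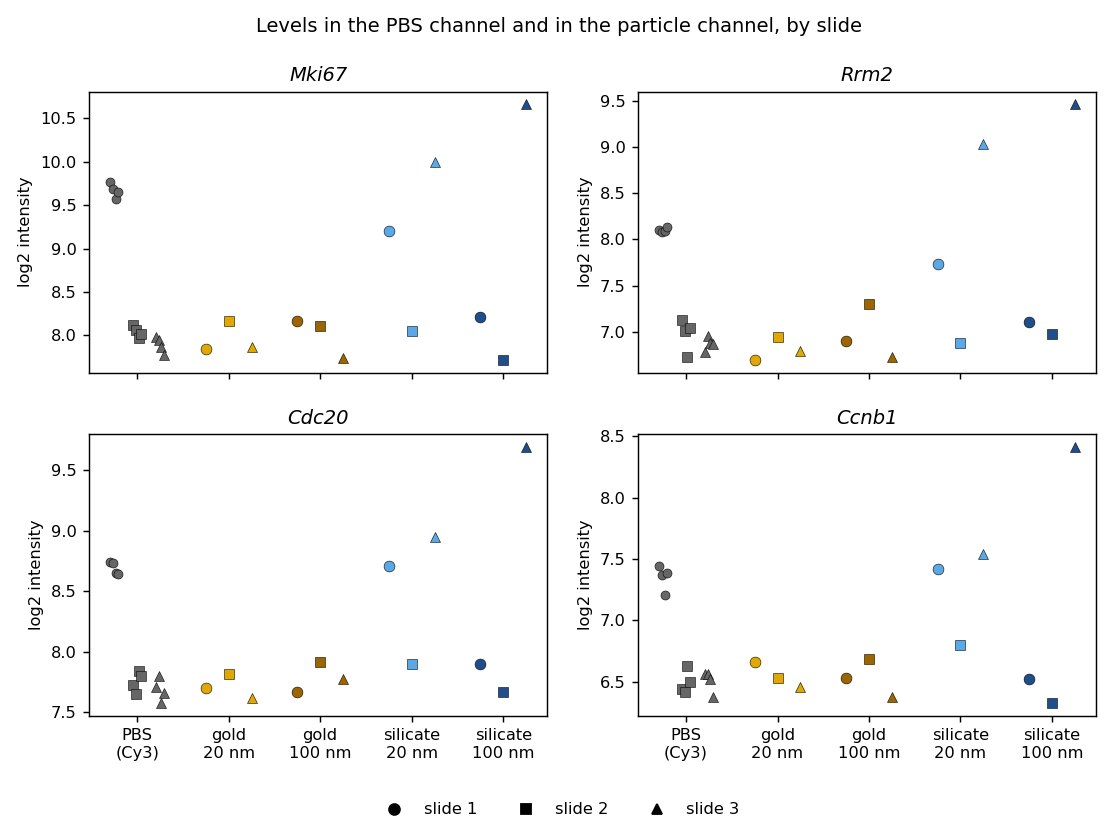
Log2 intensity of Mki67, Rrm2, Cdc20 and Ccnb1 in the PBS channel (4 readings per slide) and in each particle tube, with marker shape for the slide and a scale of its own for each gene. PBS of slide 1 and 3 silicate tubes stand above all other tubes, which for Mki67 read 7.72 to 8.21.

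Markers of macrophages and microglia were highest in the tubes in which these genes were high. Of 15 listed markers of macrophages and microglia 14 were tested, and their summed level in PBS was 17.88 to 17.95 on slide 1, 13.52 to 13.57 on slide 2 and 14.37 to 14.59 on slide 3. In the particle channel it was 18.37 and 18.72 in the silicate tubes of slide 3, 15.75 in the silicate 20 nm tube of slide 1 and 13.63 to 14.95 in the other 9. These are the tubes in which Mki67, Rrm2, Cdc20 and Ccnb1 were high. In ratios the markers parted from these genes on the silicate 20 nm array of slide 1, with a median of -2.20. Mki67, Rrm2, Cdc20 and Ccnb1 were at -0.37, -0.35, 0.06 and 0.22 on that array. The markers also parted from these genes on the gold 20 nm array of slide 2, with a median ratio of 1.11. There the genes were at 0.04, -0.18, 0.08 and 0.09, in the same order. On the gold 100 nm array of slide 2 the median of the markers was 0.49. The genes were at 0.06, 0.29, 0.27 and 0.27 on that array, and the other kept probe of Mki67 was at 0.54. All 14 read higher in PBS of slide 1 than of the other slides, and all 14 read higher in both silicate tubes of slide 3 than in the other particle tubes. Of the neutrophil markers 10 of 13 were tested, with a summed level in PBS of 18.70 to 18.81 on slide 1 against 16.20 to 17.07 elsewhere, and of 18.19 and 18.29 in the silicate tubes of slide 3 against 16.73 to 17.27 in the other particle tubes. The summed level of neutrophil markers did not single out the silicate 20 nm tube of slide 1. It was 17.26 there beside 17.27 for gold 100 nm on that slide. Csf3r, a bright part of that sum, stood at 16.66 and 16.83 in these tubes. Among the particle tubes of slide 1, S100a8, S100a9, Lcn2, Cxcr2 and Mmp9 each read highest with silicate 20 nm. S100a8 was at 8.80 there and at most at 7.75 in the others. The margins of Cxcr2 (6.49 against at most 6.42) and Mmp9 (8.07 against at most 8.01) were small. Mpo, Elane, Csf3r, Camp and Retnlg did not read highest there. S100a8 also had ratios of 4.68 and 3.59 on the silicate 20 and 100 nm arrays of slide 2, where Mki67 was at 0.08 and -0.30.

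Markers of rods, which define the neural retina, went the opposite way and were well above background on every array, 16 of 16 in both channels. Their summed level was 20.21 to 20.27 in PBS of slide 1 against 20.59 to 21.00 in PBS of the other slides, and 20.13 and 20.21 in the silicate tubes of slide 3 against 20.72 to 20.98 in the other particle tubes. Vessel markers, 12 of 12 tested, had median ratios of -0.50 to -0.34 on slide 1, -0.05 to -0.01 on slide 2, and 0.67 and 0.93 on the silicate arrays of slide 3. Müller glia markers, 14 of 14 tested, had medians of 0.66 and 0.31 there. Their summed levels were 19.06 and 18.79 against 17.96 to 18.28 in the other particle tubes. Of these markers, 6 of 14 read higher in both silicate tubes of slide 3 than in the other particle tubes, and 1 read lower. Over all genes 17.2% read higher and 19.2% lower. Apoe, a bright part of that sum, stood at 18.13 and 17.81 in these tubes. Rlbp1 had ratios of -0.08 and -0.03 there, and Glul of -0.15 and -0.08. Lymphocyte markers, 7 of 13 tested, had medians of 0.74 and 0.56 on the silicate arrays of slide 3 and of -0.05 to 0.07 on the other 10 arrays. The part of any of these cells in the proliferation genes was not tested, and in pooled tissue fewer cells of a type and less RNA per cell cannot be told apart. For Bub1b the macrophage markers did not follow: on slide 1 it was below 0 with them, and on the silicate arrays of slide 3 it was at -0.95 and -0.81 where their medians were 3.37 and 3.59.

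As a description over the 12 arrays, which share 3 PBS pools and the tubes above, the ratios of Mki67 had a Pearson r of 0.992 with Rrm2, 0.991 with Cdc20, 0.971 with Ccnb1 and 0.963 with Mcm5. The r was 0.862 with Ccnd1, 0.789 with Mcm2 and 0.532 with Pcna, and it was -0.183 with Bub1b and -0.592 with Ccna2. Against the median ratio of the macrophage markers r was 0.946 for Mki67, 0.938 for Rrm2, 0.925 for Cdc20, 0.904 for Mcm5, 0.889 for Ccnb1 and for Ccnd1, 0.797 for Mcm2 and 0.712 for Pcna, and it was 0.00512 for Bub1b and -0.456 for Ccna2. Apart from Bub1b and Ccna2, the genes thus graded from those close to Mki67 through Ccnd1 and Mcm2 to Pcna. Bub1b and Ccna2 stood apart, with r of 0.00512 or less in both comparisons.

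The 5 genes whose ratios were most like the mean of the members over the 12 arrays were Mmp2 (r = 0.994), Tpx2 (0.994), Rcbtb2 (0.993), Uhrf1 (0.991) and Cks1b (0.991). Tpx2 encodes a spindle assembly factor, Uhrf1 a factor that maintains DNA methylation through replication, Cks1b a partner of cyclin-dependent kinases and Mmp2 a gelatinase. That mean is carried by the members of widest range. The 3 genes most like Bub1b were Olfr586 (r = 0.945), Naa50 (0.942) and Pih1d2 (0.929). Their ratios spanned -0.23 to 0.27, -0.26 to 0.10 and -0.54 to 0.00, a smaller range than that of Bub1b. These values are those of the probe that stands for each gene. Other kept probes of Naa50 spanned -0.74 to 0.46 and -0.87 to 0.29. Another kept probe of Rcbtb2 spanned -0.18 to 0.82, where the one used spanned -1.36 to 2.20.

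**Figure D5:**
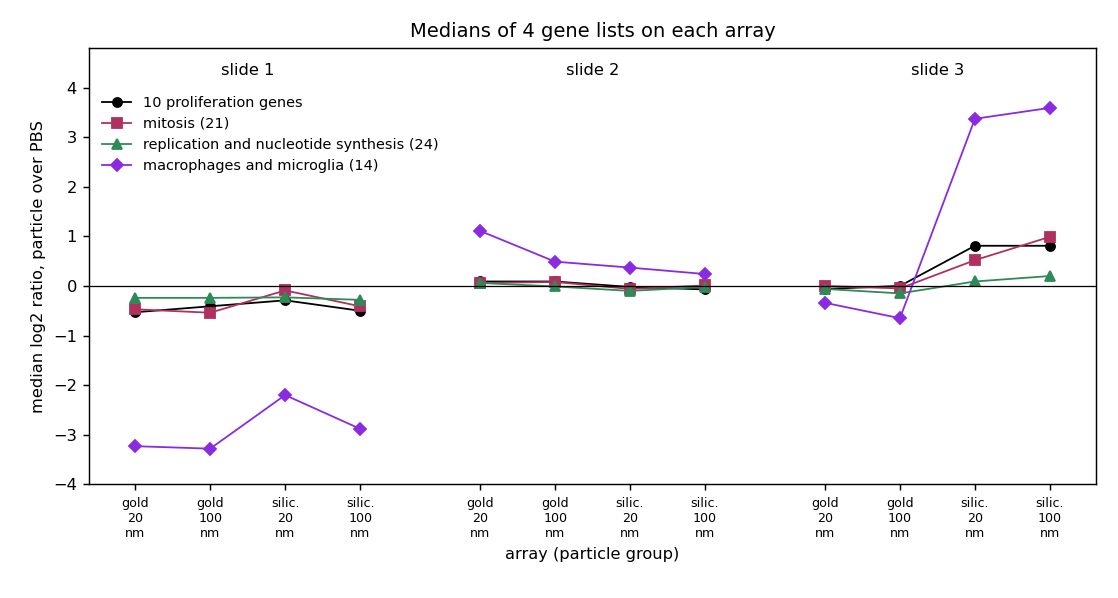
Median log2 ratio of particle over PBS on each of the 12 arrays for the 10 proliferation genes, 21 genes of mitosis, 24 genes of replication and nucleotide synthesis and 14 markers of macrophages and microglia, grouped by slide. All 4 medians are below 0 on slide 1, within 0.10 of 0 on slide 2 for the 3 lists of the cell cycle, and highest on the silicate arrays of slide 3.

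The medians of other lists of cell cycle genes were also low on slide 1 and highest on the silicate arrays of slide 3, though not all their genes were. The median ratio of the 10 members was -0.53, -0.41, -0.29 and -0.50 on slide 1 in the order gold 20, gold 100, silicate 20 and silicate 100 nm, and 0.09, 0.09, -0.02 and -0.07 on slide 2. On slide 3 it was -0.06 and 0.00 with gold and 0.81 and 0.81 with silicate. Of 27 further genes of mitosis 21 were tested, with medians of -0.54 to -0.09 on slide 1, -0.06 to 0.08 on slide 2, and 0.52 and 0.99 on the silicate arrays of slide 3. The 24 tested of 25 genes of replication and nucleotide synthesis moved less, with medians of -0.28 to -0.23 on slide 1, and 0.09 and 0.20 on the silicate arrays of slide 3. Of 14 further cyclins, kinases and transcription factors 10 were tested, with medians of -0.57 to -0.25 on slide 1 and of 0.46 and 0.62 on those arrays. Brakes of the cell cycle, 11 of 12 tested, went the same way, with medians of -0.37 to -0.10 on slide 1 and of 0.18 and 0.18 on those arrays. Among the brakes Cdkn1a, an inhibitor of cyclin-dependent kinases, ranged from -3.41 to 2.55, wider than Mki67, and is named here after its values were seen. Higher in both silicate tubes of slide 3 than in the other particle tubes were 10 of 21 mitosis genes, 8 of 24 replication genes, 8 of 10 cyclins, kinases and factors and 3 of 11 brakes, beside 17.2% of all genes. Lower in both were 1, 3, 0 and 2 of them, beside 19.2%.

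Against PBS, 0 of those 10 cyclins, kinases and factors were called in any group. Of the mitosis genes, Ect2, an exchange factor needed for cytokinesis, was called lower with silicate 20 nm (-0.61; adjusted p = 0.00509 in limma, 0.0183 with slide as a random block). With silicate 100 nm it was at -0.39 (0.044 in limma, 0.133 with the random block), and gold minus silicate was 0.56 (0.175, and 0.03 with the random block). Ect2 thus had silicate values under its gold values, on each slide, as Bub1b did. Dlgap5, a spindle protein, was called higher in all 4 groups, at 1.79, 1.33, 1.63 and 1.71, with adjusted p from 0.000191 to 0.0013 in limma. In PBS its probe was not well above background on 11 of 12 arrays (1 gold 100 nm array was the exception), so its folds are bounds. For this probe they are at least 3.46-fold, 3.05-fold and 3.28-fold higher with gold 20 nm, silicate 20 nm and silicate 100 nm. They are set against the higher of the array's lowest signal well above background and the probe's own PBS reading. That reading was the higher on 3, 2 and 3 arrays of these groups, so the bounds are close to the ratios as measured. The other probe of Dlgap5 gave a mean ratio of 0.42 and at most 0.76 on any array, where the first gave a mean of 1.62. The bounds thus hold for the first probe and not for the gene. As the dyes were never exchanged, a dye effect of that probe cannot be told apart from a rise in all 4 groups.

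Over the 4 groups together, 1 of 24 genes of replication and nucleotide synthesis was called higher, the polymerase subunit Pola1 (0.16), and 7 lower. Of all genes 14.8% were called in either direction and 6.34% were called lower. The replication genes called lower included the chromatin assembly factor Chaf1a (-0.20) and the DNA ligase Lig1 (-0.18). Of 11 tested brakes of the cell cycle 1 was called higher, the kinase inhibitor Cdkn1b (0.16). With slide as a random block none of these 9 was called, with adjusted p of 0.517 for Pola1, 0.186 for Chaf1a, 0.281 for Lig1 and 0.405 for Cdkn1b. Of the 21 mitosis genes, limma called 1 higher, Dlgap5 (1.62, adjusted p = 7.83e-07), and 1 lower, Ect2 (-0.22, adjusted p = 0.00457). With slide as a random block Dlgap5 was still called (7.06e-05) and Ect2 was not (0.251). The limits given above for the probe of Dlgap5 hold here too.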

How the data were processed

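Scanner output of 12 arrays was analysed. The headers of these files name release 11.0.1.1 of Agilent's Feature Extraction, and the submitters' processing notes name 9.3.2.1. The deposited intensity columns used were the median foreground and median background signals of each dye, and, as an alternative, the processed signals. The log10 ratio of Cy5 over Cy3 in the deposited files was used to find the scale of the authors' value table, which holds a log2 ratio of Cy5 over Cy3 (slope 3.3 to 3.32; r from 0.941 to 0.995; column medians 0.0163 to 0.114; its centring is unknown) and served as another alternative.

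Background was corrected with normexp (offset 50) and arrays were normalized by loess in limma 3.58.1 (R 4.3.3), with 1377 control spots at weight 0 and 149 to 257 outlier spots per array left out; 0 spots were saturated. A probe was kept if it was well above background in either channel on all 3 arrays of a group, and the brightest kept probe stood for a gene. Levels are loess-normalized and quantile-scaled between arrays on their average intensity. Of 32334 RefSeq-type accessions, symbols were found for 26055 probes through RefSeq. The 4 group means were fitted together by lmFit and eBayes, 7 comparisons were made (two-sided, Benjamini-Hochberg over all genes, threshold 0.05), and 38 genes lacked the value of an array. The number of arrays limits the precision. Slides, read from the file headers, pair the arrays that share a replicate number: their deviations from group means correlated at 0.889 to 0.934 within slide 1, 0.0816 to 0.831 within slide 2 and 0.555 to 0.919 within slide 3. Slide entered as a random block (correlation 0.494) or as a fixed block in alternatives. The place of an array on its slide and its group cannot be told apart. The procedure was tested on simulated data with noise drawn independently for each array. That simulation held no slide or shared PBS term, so it cannot speak to the effect of either.

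The members and lists were chosen with earlier results of these data known. Named beyond the members were called genes of 4 cell cycle lists (at most 4 in each direction a comparison), the 5 genes most like the mean of the members and the 3 most like a called member; 1 gene that this rule names is not reported here. Other alternatives were median centring, no filter, a filter on both channels of all arrays, the mean of all kept probes, leaving out a slide, an array or both silicate arrays of slide 3, and, added after the data were seen, a test of each kept probe.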

Additional observations from a re-analysis of the deposited data

Results flagged for a closer look

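Ccna2 was above 0 on each of the 3 gold 100 nm arrays and below 0 on each of the 3 silicate 20 nm arrays, and the group means differed by 0.36 in log2 ratio. This opposite direction is what singled it out, and the difference between these 2 groups was not tested.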

How the results depend on the processing

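The count of called members was 1 with silicate 20 nm, 1 over the 4 groups together and 0 in the other 5 comparisons. With slide as a fixed replicate block the counts were 2 with silicate 20 nm, 1 with silicate 100 nm and 2 over all groups, by the adjusted p given for Bub1b, Ccna2 and Pcna, where that fit called 8.76%, 4.03% and 34.8% of all genes. With slide as a random block the count over all groups was 0, where 1.69% of all genes were called. Without both silicate arrays of slide 3 the silicate 20 nm count was 0. Leaving out replicates gave 0 to 1 with silicate 20 nm and 0 to 1 over all groups. The cause of these differences was not tested. Bub1b with silicate 20 nm kept its direction under all 25 alternatives, from -1.18 to -0.90, and was not called under 6, all of which left out arrays. With processed signals it was -1.18 and with the value table -1.14, called in both. With 3 arrays per group, Mki67, Rrm2, Cdc20 and Ccnb1 had wide intervals that include 0, and Ccnb1 is limited by its dim signal.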
